A study of Mus musculus with 8 samples.

Results

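Male mice with a knockout of the interleukin 18 gene (IL18ko) were compared with wild-type (WT) mice in the colon. The comparison used 4 of the 8 arrays of the study, chosen by their labels: the colon of IL18ko mice against the colon of WT mice, once for mice left in their group (the control pair) and once for mice housed alone (the stress pair). The other 4 arrays, of the rectum, were used only to see what the genes found in colon did there. Each group was 1 array carrying the pooled RNA of 5 mice. There were no replicates, and the 2 pairs, which share no array, are the only repeat of the genotype difference.

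Per the labels, mice were 10 to 12 weeks old and lived in cages of 5 brothers, of which 3 were isolated and 2 served as controls. Mice called stress were housed alone for 8 days according to the description of the design and for 16 days according to the treatment text. The control mice were killed when isolation began. The colon sample was mucosal tissue taken from 2.5 to 3.5 cm below the junction of ileum and caecum. The 4 colon groups were thus WT control, WT stress, IL18ko control and IL18ko stress. Neither the strain of the mice nor the way the knockout was made is stated there. The 4 colon arrays lay on 1 slide, at positions 1 and 2 for WT control and WT stress and at 3 and 4 for IL18ko control and IL18ko stress, so the place on the slide and the group cannot be told apart.

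Interleukin 18 is a cytokine of the interleukin 1 family that gut epithelial cells make as an inactive precursor. Caspases activated in inflammasomes cut the precursor, and the released cytokine acts through a receptor made of the chains encoded by Il18r1 and Il18rap. Together with interleukin 12 it drives T cells and natural killer cells to make interferon gamma, and in the gut it is known for effects on goblet cells and on antimicrobial proteins of the epithelium.

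Levels are log2 intensities minus the array's 75th percentile, so a level of 0 is that percentile and a difference of 1 is 2-fold. Levels are compared between arrays for 1 gene and never between genes. Between 64.1% and 65.5% of the 43379 spots of a colon array lay well above background and none was saturated. Across 12215 genes above background on all 4 arrays, the arrays correlated with r from 0.989 to 0.995. The lowest value was that of IL18ko stress against WT stress, and the highest that of the 2 WT arrays. Defining markers of colonocytes (6 of 6 above background on all 4 arrays) and of goblet cells (4 of 4 that were named on the array) gave summed levels of 9.93 to 10.2 and 10.2 to 10.3; Muc2 and Fcgbp, of the goblet cell markers, were not named on it. Smooth muscle markers (6 of 6 above background on all 4 arrays) gave summed levels from 8.99 in WT stress to 9.58 in IL18ko stress, in tissue labelled as mucosal. These sums come from different probes, so they do not show how much of each cell type was present.

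Il18 itself matched the labels. Its level was 2.76 in WT control and 2.90 in WT stress, and -7.82 and -7.64 in IL18ko control and IL18ko stress, where it was not well above background. The bound on the excess in WT was at least 517-fold, which is the mean of the WT arrays against the lowest signal that counted as well above background on the IL18ko arrays. Where the probe lies relative to the deleted part of the gene was not examined.

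The question of the comparison was which other genes differ in the colon without interleukin 18, and whether they do so under both kinds of housing. In both pairs, IL18ko colon had higher levels of the epithelial transcription factors Klf4, Cdx2 and Elf3 and of the antimicrobial lectins Reg3b and Reg3g. It had lower levels of the lectin Itln1, the interferon-inducible GTPase Ifi47 and 4 genes near Il18 on chromosome 9, Nxpe4, Nxpe2, Dixdc1 and Atm. In all, 16 of 12215 genes were at least 2-fold higher in IL18ko in both pairs (0.131%) and 10 were at least 2-fold lower in both (0.0819%), together 26 (0.213%). Counted by probe, 60 of 24764 differed 2-fold in both pairs (0.242%), 35 higher (0.141%) and 25 lower (0.101%), and 25 of them had no gene name. The largest of these lay at -0.35 in WT control, 3.93 in WT stress, -4.46 in IL18ko control and -4.48 in IL18ko stress, so that its 2 WT arrays differed widely as well. With a model-based background correction (normexp) 15 genes in place of 26 were 2-fold in both pairs. The same count made for housing in place of genotype, stress against control in both WT and IL18ko colon, gave 15 genes (0.123%).

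The 2 pairs were far from alike. In the control pair 55 of 12308 genes were at least 2-fold higher in IL18ko (0.447%) and 86 lower (0.699%). In the stress pair 382 of 12434 genes were higher (3.07%) and 74 lower (0.595%). Of the 12215 genes measured on all 4 arrays, 48 were higher in the control pair, of which 39 had the same sign in the stress pair and 16 were 2-fold there too. Of the 82 lower in the control pair, 45 had the same sign in the stress pair, and 10 were 2-fold. Of the 368 higher in the stress pair, 282 had the same sign in the control pair. Across genes, which are not independent replicates, the differences of the 2 pairs correlated with r = 0.39, and 66.1% of genes had the same sign in both. The correlation was 0.27 over the 4072 dimmest genes, 0.46 over the 4071 in the middle and 0.62 over the 4072 brightest.

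**Figure D1:**
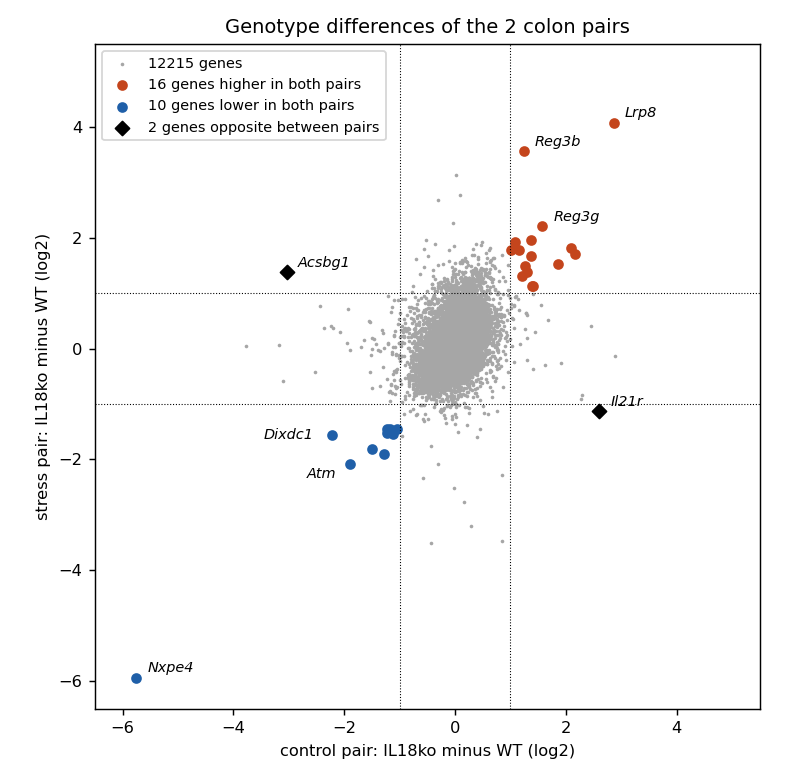
Each point is 1 of 12215 genes above background on all 4 colon arrays, with its IL18ko minus WT difference (log2) in the control pair on the x axis and in the stress pair on the y axis; dotted lines mark 2-fold. The 16 genes higher and the 10 genes lower in both pairs stand outside the lines in the upper right and lower left, Nxpe4 far from all others, and the cloud reaches further up than to the right.

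A test over both pairs was made with limma, with genotype and housing as terms, on the 24764 probes above background on all 4 arrays. It called 55 probes (0.222%) at an adjusted p under 0.05, 30 higher (0.121%) and 25 lower (0.101%) in IL18ko, while 4871 had an unadjusted p under 0.05. By gene the call held for 32 genes (0.262%), 19 higher and 13 lower, and 22 of the 26 genes that differed 2-fold in both pairs were among them. With 1 residual degree of freedom the errors come mostly from a spread shared across probes, and the calls depended on that: without the trend of the variance with signal, and in a fit of all 8 arrays, 1 probe was called, that of Nxpe4. Fits with an array left out had no housing term, where all 4 arrays gave 27 probes; without IL18ko control they called 3516 and without IL18ko stress 244. In the text, "rose" and "fell" are kept for genes this test called, values after ± are its standard errors (SE, n = 2 pairs), and adjusted p-values are from limma with Benjamini-Hochberg adjustment over all probes. The p-values measure only the spread between these pooled arrays.

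**Figure D2:**
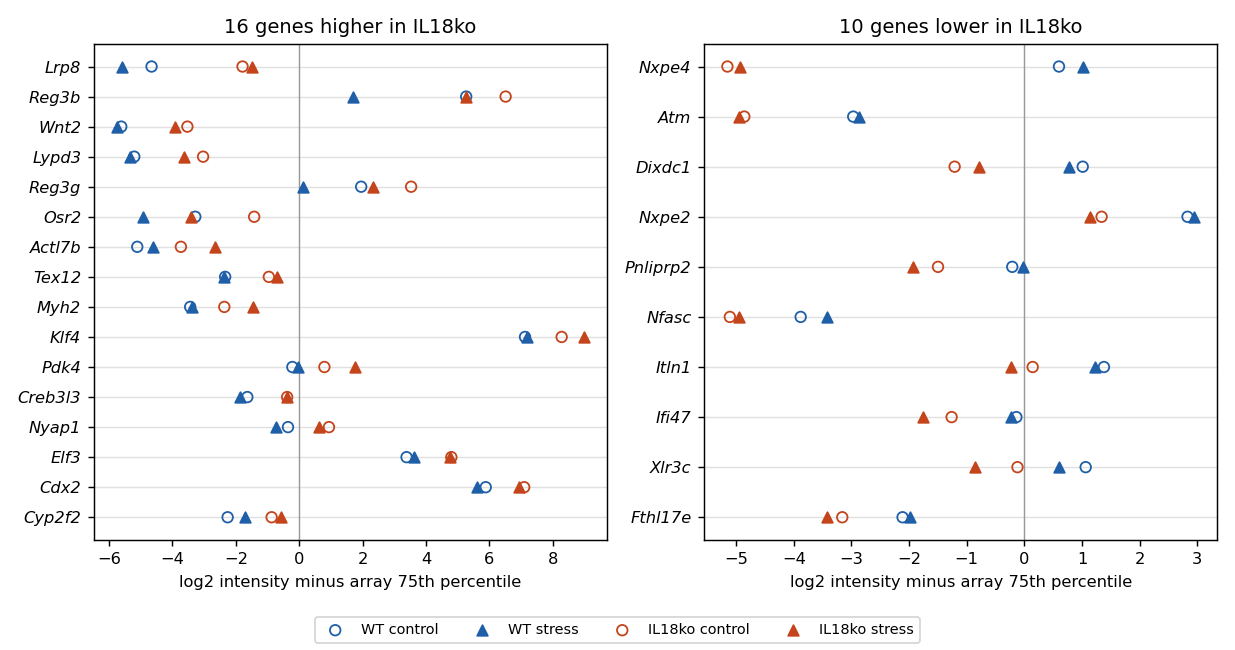
Level on each colon array (x axis, log2 intensity minus the 75th percentile of the array) of the 16 genes higher and the 10 genes lower in IL18ko in both pairs; blue stands for WT, red for IL18ko, open circles for control and filled triangles for stress. The colours separate in every gene except Osr2, and in Reg3b the IL18ko stress array and the WT control array lie at almost the same level.

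Among transcription factors of the gut epithelium, Cdx2, the homeobox factor that gives the intestine its identity, had levels of 5.88 in WT control, 5.62 in WT stress, 7.10 in IL18ko control and 6.93 in IL18ko stress. Both IL18ko arrays lay above both WT arrays, 2.32-fold in the control pair and 2.48-fold in the stress pair. It rose by 1.26 ± 0.09 (limma adjusted p = 0.0022). Klf4, a zinc finger factor of differentiated epithelium and goblet cells, was at 7.12 and 7.20 in WT control and WT stress and at 8.28 and 8.98 in IL18ko control and IL18ko stress. It rose by 1.47 ± 0.13 (limma adjusted p = 0.0044). Elf3, an ETS factor of epithelia, was at 3.39 and 3.61 in the WT arrays and at 4.80 and 4.75 in the IL18ko arrays, in the same order of housing, and rose by 1.28 ± 0.12 (limma adjusted p = 0.0052). In these 3 genes the genotypes did not overlap, and the 2 arrays of a genotype lay closer together than the genotypes did. They were chosen for a 2-fold difference in both pairs of these arrays, which largely brings such separation with it. The share of all genes without overlap was not counted. The same limit holds for the other genes chosen in this way. With normexp the mean difference of Cdx2 was 1.08, and it was no longer 2-fold in both pairs. Creb3l3, a factor of the liver and gut that is released from the endoplasmic reticulum, rose 2.39-fold in the control pair and 2.81-fold in the stress pair. Atoh1, which commits progenitors to the secretory lineages, was at -0.07 and 0.32 in the WT arrays and at 1.34 and 1.32 in the IL18ko arrays. It was called by limma too (1.20 ± 0.16, adjusted p = 0.032) but stood just under 2-fold in the stress pair, at 1.99-fold.

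The secreted defence genes went both ways. Reg3g, a lectin that kills Gram-positive bacteria, was at 1.95 in WT control, 0.13 in WT stress, 3.53 in IL18ko control and 2.34 in IL18ko stress. It was 2.98-fold higher in IL18ko in the control pair and 4.62-fold in the stress pair, and it rose by 1.89 ± 0.17 (limma adjusted p = 0.0044). Reg3b, its neighbour in the genome and a lectin of the same family whose probe could share signal with its relatives, was at 5.27 in WT control, 1.71 in WT stress, 6.51 in IL18ko control and 5.27 in IL18ko stress. Its difference was 2.37-fold in the control pair and 11.8-fold in the stress pair, and it did not pass the test (limma adjusted p = 0.060). In both genes the stress array was below the control array of the same genotype, and in both that gap in WT was larger than the genotype difference of the control pair. Reg3a was above background on 3 of the 4 arrays, with WT stress as the exception, and its measured levels were -4.91 in WT control, -3.51 in IL18ko control and -4.84 in IL18ko stress.

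Itln1, an intelectin that binds microbial sugars, went the other way. Its levels were 1.38 and 1.23 in WT control and WT stress and 0.14 and -0.23 in IL18ko control and IL18ko stress. It fell by 1.34 ± 0.15 (limma adjusted p = 0.016). Of the 24 genes listed as secreted antimicrobial defence, 14 were measured. Reg3b and Reg3g were 2-fold higher and Itln1 2-fold lower in both pairs, and the other 11 were not 2-fold in both. Beside these 3, Pigr, which carries antibodies across the epithelium, had the largest same-sign difference, -0.35 in the control and -0.98 in the stress pair, and did not pass the test. Ang4 and Retnlb, both made by goblet cells, had smaller differences, -0.56 and -0.42 for Ang4 and -0.52 and -0.50 for Retnlb, neither past the test.

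Reg3b and Reg3g are shown by the sequence around their transcription starts because they moved together and lie on the same chromosome. The sequences are from RefSeq (GRCm38.p6), 250 bases before to 50 bases after the start, 5′ to 3′ on the strand of the gene; Reg3b is at chr6:78370635-78370934 on the plus strand and Reg3g at chr6:78468825-78469124 on the minus strand. Capitals mark matches on either strand to TATAAA, the TATA box letters, and to TTCNNNGAA, the letters of the element that STAT factors bind, which do not overlap each other here.
Reg3b: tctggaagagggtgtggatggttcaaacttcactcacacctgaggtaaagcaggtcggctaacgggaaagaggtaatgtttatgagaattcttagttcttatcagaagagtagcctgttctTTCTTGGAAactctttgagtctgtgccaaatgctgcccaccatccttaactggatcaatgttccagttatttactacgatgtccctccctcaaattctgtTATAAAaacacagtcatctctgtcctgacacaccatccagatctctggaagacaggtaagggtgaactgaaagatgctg
Reg3g: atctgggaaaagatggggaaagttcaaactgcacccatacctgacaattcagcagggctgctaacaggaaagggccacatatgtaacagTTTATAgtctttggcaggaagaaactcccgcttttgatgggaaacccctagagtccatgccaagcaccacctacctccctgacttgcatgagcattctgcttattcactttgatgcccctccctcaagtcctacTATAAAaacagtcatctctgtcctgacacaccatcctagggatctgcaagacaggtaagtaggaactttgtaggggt
Both hold TATAAA close to the start, 29 bases before it in Reg3b and 27 in Reg3g, and Reg3g holds its reverse complement further upstream. TTCNNNGAA was found in the Reg3b window, 129 bases before the start, and not in that of Reg3g. The longest run of bases shared exactly by the windows was 29 bases long and began 20 bases before the start in both. Of 32851 promoter windows of this length, 13.6% held TATAAA and 8.30% held TTCNNNGAA on either strand. A match describes letters, not a site in use.

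Lrp8, a receptor for apolipoprotein E and reelin, had the largest rise. It was at -4.66 in WT control, -5.58 in WT stress, -1.79 in IL18ko control and -1.50 in IL18ko stress. The gap between genotypes was 7.31-fold in the control pair and 16.9-fold in the stress pair (3.47 ± 0.29, limma adjusted p = 0.0038). Wnt2, a secreted Wnt ligand, was at -5.61 and -5.74 in the WT arrays and -3.53 and -3.92 in the IL18ko arrays, and rose by 1.95 ± 0.25. Lypd3, an anchored surface protein of squamous epithelia, was at -5.20, -5.33, -3.03 and -3.62 in the same order, and rose by 1.94 ± 0.25. With normexp the mean difference of Lrp8 was 1.96, that of Wnt2 0.54 and that of Lypd3 0.74, so their sizes depend on how background is treated, and Wnt2 and Lypd3 were no longer 2-fold in both pairs.

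Pdk4, the kinase that shuts off pyruvate dehydrogenase, was at -0.22 and -0.02 in WT control and WT stress and at 0.79 and 1.75 in IL18ko control and IL18ko stress. It rose 2.02-fold in the control pair and 3.42-fold in the stress pair (limma adjusted p = 0.039). Cyp2f2, a cytochrome P450, rose 2.62-fold and 2.19-fold. Osr2, a zinc finger factor, was at -3.28 in WT control and -4.94 in WT stress, and at -1.42 in IL18ko control and -3.42 in IL18ko stress. The IL18ko stress level of Osr2 thus lay below the WT control level, and its rise of 1.69 ± 0.22 holds only between arrays of the same housing. Nyap1, an adaptor of phosphoinositide 3-kinase known from neurons, rose by 1.34 ± 0.15, and Actl7b, an actin-like gene of the testis, rose by 1.67 ± 0.25 from a level of -5.11 in WT control. Myh2, a myosin heavy chain of skeletal muscle, was 2.11-fold higher in the control pair and 3.79-fold in the stress pair and did not pass the test (limma adjusted p = 0.058). The summed level of skeletal muscle markers was lower in IL18ko in both pairs, by -0.16 and -0.27. The other 2 probes of Myh2 were higher in IL18ko as well, 1 with a mean difference of 1.27 and 1 above background on the IL18ko arrays alone. With normexp the mean differences of Osr2, Actl7b and Myh2 were 0.98, 0.79 and 0.96; these 3 and Pdk4, at 1.30, were then no longer 2-fold in both pairs.

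Nxpe4 had the largest difference of all genes measured on the 4 arrays. It was at 0.60 in WT control and 1.02 in WT stress, and at -5.15 and -4.93 in IL18ko control and IL18ko stress. It encodes a protein of the neurexophilin and esterase domain family. The gap was 53.9-fold in the control pair and 61.5-fold in the stress pair, and Nxpe4 fell by 5.85 ± 0.19 (limma adjusted p = 6.2e-06). With normexp its mean difference was -3.81. Its paralogue and neighbour Nxpe2 was at 2.83 and 2.94 in the WT arrays and 1.34 and 1.14 in the IL18ko arrays, and fell by 1.65 ± 0.14 (limma adjusted p = 0.0038). Nxpe5, the other family member that was measured, lay between -5.44 and -4.76 on the 4 arrays and differed by -0.20 in the control and 0.46 in the stress pair.

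Atm, the kinase that signals DNA breaks, fell from -2.97 and -2.87 in the WT arrays to -4.86 and -4.95 in the IL18ko arrays (limma adjusted p = 0.017). With normexp its mean difference was -0.81, and it was no longer 2-fold in both pairs. Dixdc1, a DIX domain protein of Wnt signalling, was at 1.01 and 0.77 in WT control and WT stress and at -1.21 and -0.79 in IL18ko control and IL18ko stress, and fell by 1.89 ± 0.19 (limma adjusted p = 0.0092). For both genes the 2 arrays of a genotype lay close together, far from those of the other genotype.

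Outside chromosome 9, Pnliprp2, a lipase related to that of the pancreas, was at -0.21 and -0.02 in WT and -1.50 and -1.93 in IL18ko colon, and fell by 1.60 ± 0.20. Ifi47, a GTPase induced by interferon gamma, was at -0.14 and -0.23 in WT control and WT stress and at -1.26 and -1.76 in IL18ko control and IL18ko stress. It fell by 1.33 ± 0.18 (limma adjusted p = 0.032). With normexp the mean of Ifi47 was -1.16, and it was no longer 2-fold in both pairs. Xlr3c, of an X-linked family whose members are near copies and may share signal, fell by 1.31 ± 0.16. Fthl17e, a ferritin-like gene of the same chromosome, was 2.07-fold and 2.73-fold lower and did not pass the test (limma adjusted p = 0.060). Nfasc, a neuronal adhesion protein, was 2.34-fold and 2.87-fold lower with its brightest probe (limma adjusted p = 0.067), while its other 2 probes had mean differences of 0.31 and -0.19, so its difference was seen with 1 of 3 probes. With normexp the mean differences of Fthl17e and Nfasc were -0.75 and -0.49, and neither was 2-fold in both pairs.

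The test called 10 further genes that were under 2-fold in at least 1 pair, 5 higher and 5 lower, Atoh1 among the former. The other 4 that rose were Hyou1, a chaperone of the endoplasmic reticulum (0.96 and 1.06), Fxyd6, a regulator of the sodium pump (0.80 and 1.40), and the actin-associated proteins Zyx (0.68 and 0.89) and Lasp1 (0.64 and 0.52). The other 3 probes of Lasp1 had mean differences between -0.08 and 0.03, and the dimmer probe of Fxyd6 had 0.42. The 5 that fell were Hopx, a homeodomain protein (-0.90 and -0.86), Gsdmc3, a gasdermin of the gut epithelium (-0.58 and -0.72), the ATP synthase subunit Atp5e, the ribosomal protein gene Rpl13a and D17H6S56E-5.

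Genes near Il18 were on the list more often than genes elsewhere. The 25 measured genes on each side of Il18 on chromosome 9 held 5 of the 26, which is 10.0% of those 50 genes. With the brightest probe standing for each gene, the rest of chromosome 9 held 0 of 645 and the other chromosomes 21 of 11520 (0.18%). On the rest of chromosome 9 limma called 2 genes, Fxyd6 and Hyou1, which lie 27 and 49 measured genes from Il18 on the side of Nxpe4. Lower were Nxpe4 and Nxpe2, 15 and 14 measured genes away on the side of Bco2, and Dixdc1 and Atm, 7 and 22 genes away on the side of Tex12. Tex12, a component of the synaptonemal complex of meiosis and the nearest measured gene there, was at -2.34 and -2.37 in the WT arrays and -0.96 and -0.70 in the IL18ko arrays. Tex12 rose by 1.52 ± 0.18 (limma adjusted p = 0.020), and its other probe had a mean difference of 1.53.

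The 5 other genes next to Il18 did not differ 2-fold. On the side of Nxpe4, Bco2, a carotenoid-cleaving enzyme, differed by -0.50 in the control and -0.90 in the stress pair, Pts, of tetrahydrobiopterin synthesis, by -0.62 and -0.67, and Plet1 by -0.49 and -0.74. On the other side Sdhd, a subunit of succinate dehydrogenase, differed by -0.16 and -0.11 and Timm8b, of mitochondrial import, by -0.54 and -0.21. None of the 5 passed the test. Within the 50 genes the 2 pairs correlated with r = 0.91, against 0.37 for genes of other chromosomes, as a description across genes; Nxpe4 weighs heavily in the first value. For some genes of the region probes of the same gene disagreed. Pcsk7 differed by -1.90 in the control and -2.09 in the stress pair with its dimmer probe and had a mean of -0.02 with the brighter one, and Cadm1 had 1.35, 0.77 and -0.27 with 3 probes. The brightest probe of Ppp2r1b had a mean of -0.05, and another differed by -1.20 in the control and -1.31 in the stress pair. Its dimmest probe went the other way and was above background on the IL18ko arrays alone. Elsewhere on chromosome 9, the dimmer probe of Anp32a differed by 2.21 in the control and 2.03 in the stress pair. That of Rps25 differed by -1.91 and -1.64. The brighter probes of Anp32a and Rps25 had means of 0.16 and -0.35.

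**Figure D3:**
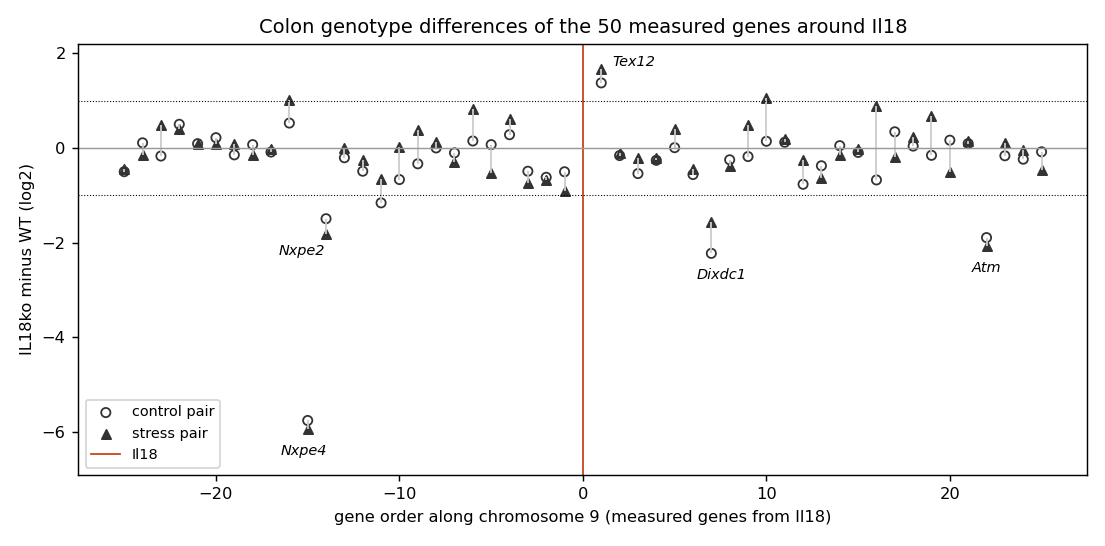
IL18ko minus WT difference (log2, y axis) of the 25 measured genes on each side of Il18 in their order along chromosome 9 (x axis); circles stand for the control pair and triangles for the stress pair, and the red line marks Il18. With the brightest probe standing for each gene, Nxpe4, Nxpe2, Dixdc1 and Atm lie below and Tex12 above the dotted 2-fold lines in both pairs. No other gene plotted does.

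Some genes were above background in 1 genotype only, so that only a bound can be given. Wherever they lie, such genes were left out of the 50 measured genes around Il18, so the count of that region is not complete. Apoc3 and Apoa1, described below, were not counted there, whatever their distance from Il18. Apoa5, another apolipoprotein gene, was counted, 19 measured genes from Il18 on the side of Nxpe4. This held for 28 genes seen on both IL18ko arrays and neither WT array, and for 73 seen on both WT arrays and neither IL18ko array, Il18 among them. In IL18ko only, the largest bounds were those of Fabp6, the bile acid carrier of the ileum, at least 4.35-fold, and Apoc3, an apolipoprotein, at least 3.64-fold, with its other probe also seen in IL18ko only. Apoa1, the main protein of high-density lipoprotein, was at least 2.35-fold higher in IL18ko, Trim80 at least 3.56-fold and the cilium gene Ccdc151 at least 3.11-fold, the last with 1 of 2 probes. All were dim, with Fabp6 at -4.17 and -4.07 on the IL18ko arrays. Of 6 markers of small intestinal enterocytes, 3 were on the array, Fabp6 and Apoa4 among them. Of these 3, 1 was above background on all 4 arrays and Apoa4 on none. Fabp6 was named above because it was seen in IL18ko only, so these markers are not a separate observation from it. Their summed level was higher in IL18ko by 0.99 in the control and 0.54 in the stress pair. The part of such cells in these values was not tested.

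In WT only, Sbp, the spermine-binding protein of the prostate, was at least 65.8-fold higher, but it was at -2.28 in WT control and 2.00 in WT stress, so the 2 WT arrays differed widely. Prl8a8, of the prolactin family, was at least 6.64-fold higher in WT, with -5.11 in WT control and -1.79 in WT stress. The olfactory receptor gene Olfr603 was at least 4.72-fold higher, and Trim66 at least 3.06-fold, with 1 of its 3 probes.

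Among the genes of the interleukin 18 pathway, 16 of 24 on the array were measured, Il18 aside as seen in WT only, and 0 were 2-fold in both pairs or called by limma (3 at an unadjusted p under 0.05). Over all probes, 4871 of 24764 had an unadjusted limma p under 0.05. The median differences of the pathway genes were 0.04 and -0.11, against 0.01 and 0.03 over all 12215 genes. The receptor chain Il18r1 was dim, between -4.83 and -4.32 on the 4 arrays, and Il18rap was above background on none. Casp1, which cuts the precursor, was between 4.86 and 5.09, and the inhibitor Il18bp between -2.81 and -2.45. The largest differences of the same sign in both pairs were those of Il12rb1, a chain of the interleukin 12 receptor (0.58 and 0.77), Casp4 of the non-canonical inflammasome (-0.64 and -0.46), Il1rn, the interleukin 1 receptor antagonist (0.05 and 0.86), and the alarmin Il33 (0.03 and 0.84). Ifng itself was above background on 2 of the 4 arrays.

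The list of interferon-stimulated genes did not hold Ifi47, which fell as described above. Of the 29 measured genes on that list, 0 were 2-fold in both pairs or called by limma (7 at an unadjusted p under 0.05, all lower). In both pairs 14 were lower and 6 higher, and the medians were -0.20 and -0.18. The largest were the immunoproteasome subunits Psmb8 (-0.56 and -1.30) and Psmb9 (-0.70 and -0.80), and the interferon-inducible GTPases Iigp1 (-0.91 and -0.52) and Gbp6 (-0.79 and -0.49). Over all genes 3804 were lower (31.1%) and 4276 higher (35.0%) in both pairs, and 4871 of all 24764 probes had an unadjusted limma p under 0.05. Genes of the cell cycle and DNA replication were lower in both pairs for 20 of 25 and higher for 2, with medians of -0.23 and -0.13; limma called 0, with 6 at an unadjusted p under 0.05, all lower. They were led by Rrm2 (-0.82 and -0.50), Top2a (-0.39 and -0.81), Ccnb1 (-0.35 and -0.61) and Pcna (-0.55 and -0.28).

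Few genes of the epithelial lineages passed the test. Over all 12215 genes, 35.0% were higher and 31.1% lower in both pairs, and the counts below stand beside that. Of 22 goblet cell and mucus genes, 11 were lower and 3 higher in both pairs, and limma called Atoh1 alone; after it came the trefoil peptide Tff2 (-1.17 and -0.76), Muc4 (-0.68 and -1.17) and Tff1 (-0.76 and -1.08), none past the test. Of 13 crypt stem cell and Wnt genes, 6 were lower and 1 higher in both pairs, with Ephb3 (-0.37 and -0.86), Sox9 (-0.39 and -0.76) and Lgr5 (-0.32 and -0.56). Of 17 enteroendocrine genes, 11 were lower and 3 higher in both. Absorptive colonocyte genes were higher in both pairs for 10 of 23 and lower for 3, with Slc51a, a basolateral bile acid exporter chain, at 1.15 and 0.69; their median mean difference changed sign with the deposited ratios. Of 16 glucocorticoid-responsive genes 10 were higher and 0 lower in both pairs, 1 of them called, Pdk4, followed by Angptl4, an inhibitor of lipoprotein lipase (1.07 and 0.93).

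Several lists of genes from cells beneath the epithelium differed in the stress pair more than in the control pair. Median differences in the control and the stress pair were -0.02 and 0.58 for smooth muscle, -0.04 and 0.67 for fibroblasts and matrix, -0.13 and 0.78 for endothelium, and 0.16 and 0.84 for adipocytes. Macrophages and dendritic cells gave -0.21 and 0.44, and B and plasma cells -0.10 and 0.48. Immediate early genes, a list not tied to a cell type, gave 0.02 and 0.67. Other lists moved less: enteric neurons and glia gave 0.18 and 0.36, T and NK cells 0.01 and 0.27. Skeletal muscle gave 0.08 and -0.08, and mast cells 0.14 and 0.13. Examples were Cfd, the adipocyte protease adipsin (0.12 and 1.39), Col1a1 of type I collagen (0.25 and 1.28) and the muscle gene Synm (0.18 and 1.38), none of them past the test. The summed markers include genes of these lists, Plin1, Cfd and Acta2 among them, so they are not a separate observation. They moved likewise: adipocyte markers were at 4.89 in WT control, 4.08 in WT stress, 5.12 in IL18ko control and 5.24 in IL18ko stress. Smooth muscle markers were at 9.19, 8.99, 9.12 and 9.58 in the same order. The lower WT stress value and the higher IL18ko stress value both enter the stress pair. The summed B and plasma cell markers changed sign between pairs, -0.998 and 0.44. More cells of a type and more RNA per cell cannot be told apart in such samples, and the part of these markers in the larger number of genes higher in the stress pair was not tested.

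**Figure D4:**
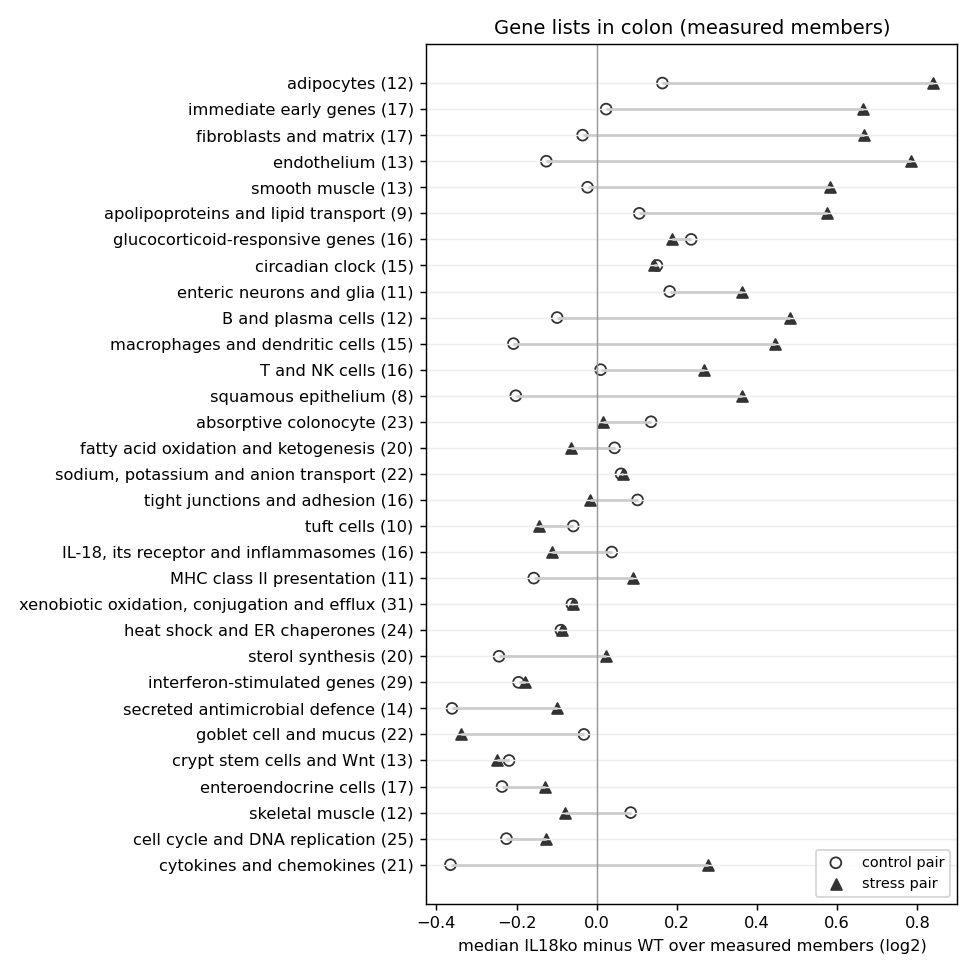
Median IL18ko minus WT difference (log2, x axis) over the measured members (number in brackets) of 31 gene lists with at least 8 measured members; circles stand for the control pair and triangles for the stress pair, and the lists are ordered by the median of the mean difference. Adipocytes, endothelium, fibroblasts, smooth muscle and immediate early genes reach 0.58 to 0.84 in the stress pair and lie between -0.13 and 0.16 in the control pair.

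Only 2 genes (0.0164%) were at least 2-fold apart in opposite directions, both dim. Il21r, the interleukin 21 receptor, was 6.09-fold higher in the control pair and 2.19-fold lower in the stress pair, with its IL18ko control level of -1.85 apart from the other 3, which lay between -5.20 and -4.06. Acsbg1, a fatty acid activating enzyme, was 8.20-fold lower and then 2.61-fold higher, with WT control at -2.05 and the others between -5.72 and -4.34. In each gene 1 array of the control pair stood apart from the other 3 arrays.

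In the rectum, which was not used to choose the genes, 11 of the 16 higher genes were above background on all 4 arrays. Of these, 7 were higher in IL18ko in both rectum pairs and 0 lower in both, with medians of 0.71 in the control and 0.51 in the stress pair, and Cdx2 and Elf3 were 2-fold higher in both, Elf3 by 1.76 and 1.42 and Cdx2 by 1.42 and 1.54. All 10 lower genes were measured there, 8 were lower in both rectum pairs and 1 higher, with medians of -1.27 and -0.79. Among all 11786 genes measured in both tissues, 23.9% were higher and 29.2% lower in both rectum pairs. At least 2-fold in both, 48 of these genes were higher and 9 lower. Among the 12074 genes measured in rectum, with or without colon, 62 (0.514%) were 2-fold in the same direction in both rectum pairs. The 3 genes 2-fold lower in both rectum pairs were Nxpe4 (-5.45 and -5.71), Nxpe2 (-1.87 and -2.80) and Atm (-1.92 and -1.63).

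Other members differed between the tissues in sign or could not be compared. Dixdc1, lower in colon, was higher in IL18ko rectum by 1.02 and 0.84. Tex12 gave 0.02 and -0.83 and Wnt2 0.23 and -0.43 in rectum, Pnliprp2 -0.17 and 0.72. Reg3b and Reg3g were above background on 2 and 1 of the 4 rectum arrays and Lrp8 on 2. limma on the 4 genotype differences called 0 of 23554 probes (0.0%) as differing between the tissues, with 570 at an unadjusted p under 0.05, and 46 probes with housing as a second term. In the fit without that term no gene is thus shown to differ between colon and rectum in its dependence on genotype. The labels leave unsaid whether colon and rectum RNA was pooled from the same animals.

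**Figure D5:**
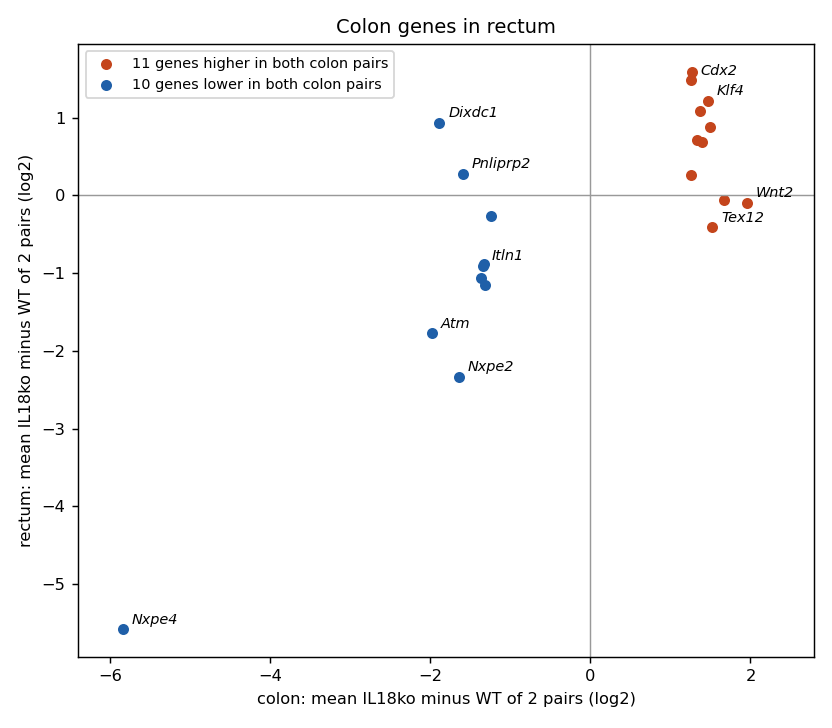
Mean IL18ko minus WT difference of the 2 pairs (log2) in colon on the x axis and in rectum on the y axis, for the 11 higher (red) and 10 lower (blue) colon genes above background on all 4 rectum arrays. Most points lie on the same side of 0 in both tissues, and Dixdc1, at -1.89 and 0.93, lies in the upper left.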

How the data were processed

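The members, gene lists and tests were chosen with earlier results of these data known. The deposited scanner files give 1-colour intensity per spot, background-corrected by the authors' Feature Extraction (9.5.1.1, build mm7, per the file headers) and stored to 3 significant digits. The authors' deposited value table holds a ratio to the WT control colon array, with scaling not given in the sources used here; in log2 it correlated with the scanner intensities at r from 0.995 to 1.000.

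Outlier spots were removed and spots of a probe averaged (40963 of 41174 probes kept; 22850 named, for 16306 genes, through RefSeq). log2 intensity was set relative to the array's 75th percentile, and the brightest probe stood for its gene. Named genes were Il18, the 15 largest mean differences in each direction among genes 2-fold in both pairs, the 5 largest bounds per genotype, the 6 genes nearest Il18, opposite genes and the 4 largest same-sign members of a list; further genes were picked after their values were seen. Tests used limma 3.58.1 in R 4.3.3. On simulated arrays of this design, with noise independent between arrays, limma called more unchanged probes than its threshold implies in each run. Its p-values can thus be too small. Other steps ran in Python 3.11.15 with pandas 2.3.3, numpy 2.4.6 and, for plots, matplotlib 3.10.9.

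Alternatives were quantile normalization, median centring, normexp (offset 50, on the median signal, since the mean was not held; 15 probes far under local background left out after the fit was seen), a common floor, the deposited ratios, other folds, filters and designs, and leaving out arrays.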

Additional observations from a re-analysis of the deposited data

Results flagged for a closer look

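Dixdc1 stood out because its genotype difference had opposite signs in the tissues in every pair: its mean difference, IL18ko minus WT, was -1.89 in colon and 0.93 in rectum. The test of the difference between the tissues did not pass (limma adjusted p = 0.827).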

How the results depend on the processing

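Of 26 genes 2-fold in both colon pairs, normexp left 15, of which 14 were among the 26. Other rules gave 205 at 1.5-fold, 5 at 3-fold, 59 with a background filter on 1 array of each pair, 84 by the mean of the pairs, 130 in the control pair alone and 435 in the stress pair alone. The remaining alternatives gave 18 to 27, and 4 or 5 genes beside Il18. Over 7 settings the 25 genes named for the largest differences gave 155 comparisons that kept their direction and the 2-fold rule in both pairs. In 13 the rule was lost and 0 reversed. The common floor and keeping outlier spots left these mean differences as they were. Averaging probes could not change a gene with no other probe, so many of the 155 were fixed in advance. The losses came from normexp, apart from Nfasc with probes averaged and Pdk4 with the deposited ratios. Wnt2, Lypd3 and other dim genes were not in the deposited ratios. The limma count of 55 probes (30 higher, 25 lower) became 20 with quantile normalization, 402 with median centring (171 higher, 231 lower), 272 with normexp, 538 with the deposited ratios (174 higher, 364 lower), 27 without the housing term, 1 without the variance trend and 1 with all 8 arrays. Leaving out 1 array gave 49 to 3516 probes, the latter without IL18ko control and 244 without IL18ko stress; these fits have no housing term. The difference between tissues gave 46 probes with housing as a second term, where the main fit gave 0. The median difference of all genes in the stress pair was 0.03, and -0.10 over the 10181 genes of the deposited ratios; no other scaling moved it as far. The cause of these shifts was not tested. The labels give no replicate numbers to pair by; the main fit pairs the arrays by housing. With 1 pool per group, precision is limited by the number of arrays, and dim genes near background are least certain.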
